A study of Mus musculus with 2 samples.

Results

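The 9 genes described here encode the kinases and adaptors that act directly below the T cell receptor: the kinases Lck, Fyn and Zap70, the scaffolds and regulators Lat, Lcp2 and Themis, and the effector enzymes Vav1, Plcg1 and Rasgrp1. They were chosen by name and matched by gene ID to both deposited gene tables, and all 9 of the 24532 gene IDs were found. The RNA came from double-positive (DP) thymocytes, T cell precursors that carry both CD4 and CD8, sorted for surface CD69 from C57BL/6 mice aged 6 weeks. The KO-labelled library came from mice with floxed Nsrp1 alleles and a CD4Cre transgene (NSRP1f/fCD4Cre, an NSrp70 conditional KO), and the WT-labelled library from mice with the same floxed alleles and no Cre named (NSRP1f/f). CD4Cre is active from about the DP stage onwards, so the labels describe a deletion that begins in these cells or shortly before. Nsrp1 encodes NSrp70, a protein of nuclear speckles known for a role in splice site choice, and the question is what changes in RNA levels and transcript forms without it. There was 1 library per label, so no difference below has a replicate check and no test was made. Each 95% interval covers counting error only. The sources used here do not say how many mice went into a library.

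When a T cell receptor binds its ligand, Lck phosphorylates the CD3 and zeta chains, Zap70 docks on them and phosphorylates the adaptors Lat and Lcp2 (SLP-76), and these gather Vav1, Plcg1 and other enzymes. Plcg1 then makes the second messengers that release calcium and recruit Rasgrp1, which loads Ras with GTP. In DP thymocytes this relay sets whether a cell is positively selected, and Themis is a T lineage protein needed for that step in mice.

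Nsrp1 itself stood at 29.6 TPM (95% exact Poisson interval 27.9 to 31.5) in the KO-labelled library and at 29.7 TPM (27.7 to 31.9) in the WT-labelled library. TPM is abundance per length, scaled so that each library sums to 1000000. Its 7 exons were covered in both libraries, with depth ratios of 0.827 to 1.08, so neither the level nor an exon showed the deletion, and every direction below is between libraries as they are labelled. The sorting markers were present in both: Cd4 at 663 and 725 TPM, Cd8a at 1151 and 1138 TPM, Cd8b1 at 1679 and 1377 TPM and Cd69 at 522 and 430 TPM in the KO- and WT-labelled libraries. The Y-linked genes Ddx3y, Eif2s3y, Kdm5d and Uty were all present in both libraries and higher in the KO-labelled one, and Xist stood at 76.3 TPM there, against 202 TPM in the WT-labelled library. Xist and Y-linked RNA were thus both in each library, and a differing mix of sexes cannot be told apart from genotype. Aligned bases on annotated exons came to 5076 megabases (KO-labelled) and 4199 megabases (WT-labelled). Summed markers of other cells were low beside the sorting markers in the KO- and WT-labelled libraries, at 62.5 and 54.0 TPM for B cells, 66.7 and 82.9 TPM for macrophages, 6.27 and 7.25 TPM for dendritic cells, 8.98 and 7.47 TPM for thymic epithelium (Foxn1, Krt5 and Krt8 at 0 in both), and 105 and 121 TPM for stroma and endothelium, of which the endothelial gene Pecam1, the only one of the 4 above 1 TPM, made 104 and 120 TPM. The 4 natural killer cell markers summed to 68.8 and 46.4 TPM in the KO- and WT-labelled libraries, and the 4 markers of mature single-positive thymocytes to 263 and 309 TPM, among them Klf2 at 19.3 and 41.5 TPM. Of these 4 thymocyte markers 3 were lower in the KO-labelled library, against 61.5% of all genes measured, and 1 was higher. All 3 were lower by at least 0.5 on the log2 scale, against 6.42% of all genes. Of them 2 were lower by at least 1, against 165 of 12029 genes. Of the 4 natural killer cell markers 3 were higher in the KO-labelled library by at least 0.5, against 3.37% of all genes, and 1 was lower. The part of these cells in the values below was not tested. In such bulk samples fewer cells of a type and less RNA per cell cannot be told apart.

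The sequences that separate transcript forms of these genes are shown here because the transcript results rest on them. Fyn is made in a brain form (FynB) and a T cell form (FynT) that use alternative copies of 1 exon, which codes for the linker and the start of the kinase domain. Both copies come from GENCODE M21 transcripts on mm10 (GRCm38), and capitals mark the 93 bases that are identical when the copies are aligned.

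FynB exon, chr10:39529437-39529601, plus strand: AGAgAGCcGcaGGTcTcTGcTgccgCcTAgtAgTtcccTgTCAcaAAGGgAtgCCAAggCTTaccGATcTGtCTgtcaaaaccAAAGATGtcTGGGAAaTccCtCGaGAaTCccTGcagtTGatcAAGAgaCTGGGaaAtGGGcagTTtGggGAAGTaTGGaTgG

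FynT exon, chr10:39529919-39530074, plus strand: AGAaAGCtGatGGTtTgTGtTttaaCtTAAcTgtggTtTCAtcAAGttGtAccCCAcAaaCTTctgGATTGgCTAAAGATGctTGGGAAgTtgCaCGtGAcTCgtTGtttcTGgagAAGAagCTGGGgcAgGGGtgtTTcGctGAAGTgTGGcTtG

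The copies differ in length by a whole number of codons, 165 bases for FynB and 156 bases for FynT. Themis has an alternative exon of 162 bases with 3 stop codons in the reading frame, which GENCODE places in transcripts of the nonsense-mediated decay class. Its first bases are shown up to the first stop codon, which is in capitals and starts at base 30 of the exon.

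Themis alternative exon, first bases, chr10:28733492-28733523, plus strand: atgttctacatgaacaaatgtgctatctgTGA

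Lck is transcribed from a distal and a proximal start, of which the proximal one is known for its use in thymocytes and the distal one for its use in mature T cells. The 250 bases before each start, from the RefSeq table of GRCm38.p6, are shown because the transcript shares of Lck depend on which start was used. Capitals mark the letters GGAAGT (the core bound by ETS factors), TGTGGT (RUNX factors) and CAGGTG (E proteins), searched on both strands.

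Lck distal start, bases before it, chr4:129573642-129573891, minus strand: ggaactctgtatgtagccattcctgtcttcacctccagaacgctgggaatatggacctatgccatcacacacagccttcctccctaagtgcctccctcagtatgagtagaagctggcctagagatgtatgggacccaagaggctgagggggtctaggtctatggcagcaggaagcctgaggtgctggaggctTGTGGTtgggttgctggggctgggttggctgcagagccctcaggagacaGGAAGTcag

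Lck proximal start, bases before it, chr4:129558373-129558622, minus strand: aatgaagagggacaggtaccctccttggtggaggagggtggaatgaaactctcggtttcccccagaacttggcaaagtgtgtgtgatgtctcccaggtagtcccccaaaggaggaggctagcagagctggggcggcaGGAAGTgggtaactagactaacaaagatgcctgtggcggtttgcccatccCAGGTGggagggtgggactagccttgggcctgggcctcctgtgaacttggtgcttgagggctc

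The distal window holds 1 GGAAGT and 1 TGTGGT, and the proximal window 1 GGAAGT and 1 CAGGTG. Within each window the marked letters do not overlap. These letters are common: of 32851 such windows, 19.7% hold GGAAGT, 14.0% TGTGGT and 17.2% CAGGTG. A match of letters is a description and not a bound site.

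The 9 genes were abundant in both libraries. Their summed level was 6224 TPM in the KO-labelled library and 6289 TPM in the WT-labelled library, which is 0.622% and 0.629% of all TPM. Lck and Lat together made up 62.9% and 60.0% of that sum in the KO- and WT-labelled libraries. In the KO-labelled library the order was Lck, Lat, Rasgrp1, Lcp2, Zap70, Themis, Fyn, Vav1 and Plcg1, and in the WT-labelled library Fyn stood above Vav1 and Themis. The counting intervals of Fyn, Themis and Vav1 overlapped in the WT-labelled library, so their order there is not resolved, nor is that of Lcp2 and Zap70 there or of Fyn and Vav1 in the KO-labelled library. Levels between genes are compared in TPM, which is per length.

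**Figure D1:**
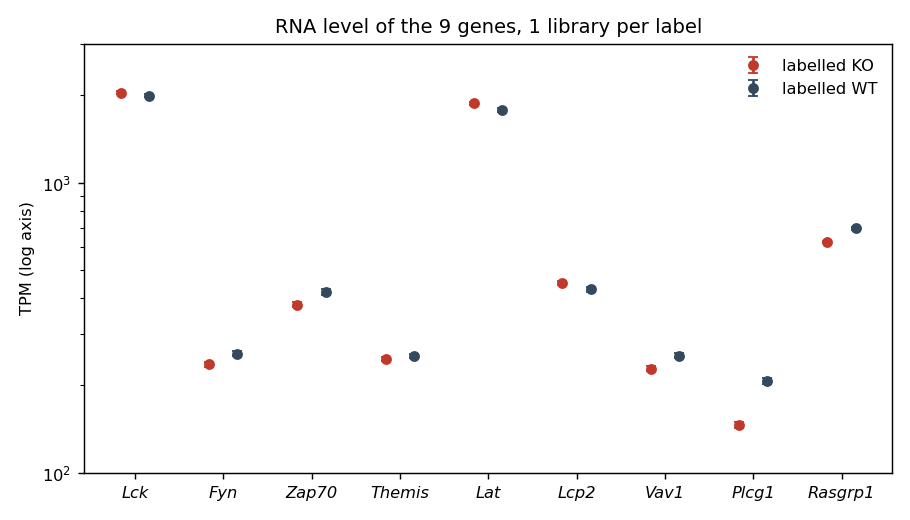
Level of each gene in TPM (log axis) in the KO-labelled library (left point of each pair) and in the WT-labelled library (right point), with 95% exact Poisson intervals that cover counting error only. Lck and Lat lie highest in both libraries, and Plcg1 shows the widest gap, at 146 TPM (KO-labelled) and 207 TPM (WT-labelled).

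Lck, the Src family kinase that starts the relay, stood at 2040 TPM (2022 to 2058) in the KO-labelled library and at 1993 TPM (1973 to 2014) in the WT-labelled library. The levels were nearly equal, with a log2 fold change of 0.033, taken as log2((TPM + 1) labelled KO / (TPM + 1) labelled WT), and a ratio of 1.02 (exact binomial interval 1.01 to 1.04). Its sign turned, at -0.033, when the terminal exon was left out. Among all genes Lck ranked 55th in the KO-labelled library and 54th in the WT-labelled one.

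Fyn, the second Src family kinase of these cells, stood at 237 TPM (232 to 242) in the KO-labelled library and at 258 TPM (252 to 263) in the WT-labelled library. It was slightly lower in the KO-labelled library, with a log2 fold change of -0.12 and a ratio of 0.919 (0.892 to 0.947). Zap70, the kinase that docks on the phosphorylated zeta chain, stood at 379 TPM (372 to 387) and 421 TPM (411 to 430) in the KO- and WT-labelled libraries. It too was slightly lower in the KO-labelled library, with a log2 fold change of -0.15 and a ratio of 0.902 (0.875 to 0.930).

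The 3 scaffolds and regulators differed by less than 0.1 on the log2 scale in TPM. Lat, the membrane scaffold, stood at 1872 TPM (1850.0 to 1895) in the KO-labelled library and at 1781 TPM (1756 to 1806) in the WT-labelled library, a log2 fold change of 0.072. Lcp2, the cytosolic adaptor that binds Lat through Gads, stood at 449 TPM (443 to 456) in the KO-labelled library and at 428 TPM (421 to 436) in the WT-labelled library, a log2 fold change of 0.069. Themis stood at 247 TPM (243 to 252) in the KO-labelled library and at 253 TPM (248 to 258) in the WT-labelled library, a log2 fold change of -0.032 whose counting interval of the ratio, 0.954 to 1.003, includes 1. Lat and Lcp2 lay a little above their level in the WT-labelled library under all 7 scalings and filters tried, whereas Themis lay below it in 5 of the 7, at -0.23 without the terminal exon and at 0.067 with FPKM.

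Among the effector enzymes Plcg1 stood apart. Plcg1, the phospholipase that makes inositol trisphosphate and diacylglycerol, stood at 146 TPM (142 to 149) in the KO-labelled library and at 207 TPM (203 to 212) in the WT-labelled library. It was lower in the KO-labelled library, at a log2 fold change of -0.50, a ratio of 0.704 (0.682 to 0.727), and ranked 1311th there, against 835th in the WT-labelled library. Of all 12029 genes measured, 6.33% had a fold change at or below that of Plcg1, and of the 2115 genes with a mean of at least 100 TPM, 1.84% did. Under the 7 scalings and filters its log2 fold change ran from -0.51 to -0.40, so its direction held, while the size of 0.5 used below was missed with FPKM and with a rescaling by the median ratio of all genes.

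Vav1, the exchange factor for Rac that also steadies the Lat complex, stood at 228 TPM (224 to 233) in the KO-labelled library and at 253 TPM (248 to 258) in the WT-labelled library. Its log2 fold change was -0.15 and its ratio 0.903 (0.878 to 0.929). Rasgrp1, the diacylglycerol-dependent activator of Ras, stood at 624 TPM (617 to 630) in the KO-labelled library and at 695 TPM (687 to 703) in the WT-labelled library. Its log2 fold change was -0.16 and its ratio 0.898 (0.884 to 0.912). Without the terminal exon the log2 fold change was -0.41 for Rasgrp1 and -0.16 for Vav1.

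None of the 9 genes reached a log2 fold change of 1 in either direction, the size used here for a call, against 2.03% of all genes measured. At a smaller size of 0.5, 1 of the 9, Plcg1, was lower in the KO-labelled library and none was higher, against 6.42% of all genes lower and 3.37% higher. Among genes with a mean of at least 100 TPM these shares were 1.99% lower and 0.851% higher. The median log2 fold change was -0.12 for the 9 genes, -0.070 for all genes and 0.0075 for the genes of at least 100 TPM, the range in which all 9 lie. With FPKM in place of TPM the median of all genes moved to 0.026, and relative to the median of all genes 4 of the 9 lay above and 5 below. Fyn, Zap70, Plcg1, Vav1 and Rasgrp1 lay below that median under all 7 scalings and filters.

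**Figure D2:**
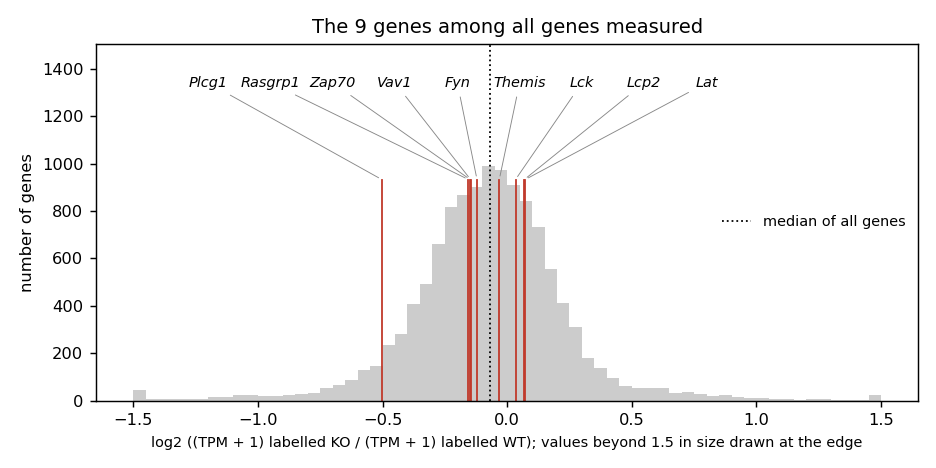
Number of genes (vertical axis) by log2 fold change, labelled KO over labelled WT (horizontal axis), for the 12029 genes measured, with red lines at the 9 genes and a dotted line at the median of all genes, -0.070. Plcg1 lies in the lower tail at -0.50, and the other 8 lie between -0.16 and 0.072.

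Together the 9 genes held most of the TPM of their 8 families in both libraries, with Lck far above Fyn in theirs. Lck and Fyn held 99.4% of the summed TPM of 8 Src family kinases in the KO-labelled library and 99.3% in the WT-labelled library. The most abundant of the 6 others, Fgr, stood at 5.56 and 5.96 TPM in the KO- and WT-labelled libraries. Syk, the paralog of Zap70, stood at 12.04 and 12.3 TPM, Lat2, the paralog of Lat, at 5.80 and 5.58 TPM, and Blnk, the B cell counterpart of Lcp2, at 3.48 and 2.99 TPM in the KO- and WT-labelled libraries. The counting intervals of the ratio of these 4 paralogs include 1.

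Plcg2, the phospholipase of B and myeloid cells, stood at 3.18 TPM in the KO-labelled library and at 3.52 TPM in the WT-labelled library, with an interval of the ratio, 0.710 to 1.15, that includes 1. Of the sum of Plcg1 and Plcg2, Plcg1 held 97.9% and 98.3% in the KO- and WT-labelled libraries. The least exclusive families were Vav, in which Vav1 held 88.2% and 87.4% of TPM, and RasGRP, in which Rasgrp1 held 82.9% and 81.8%, each in the KO- and WT-labelled libraries. Vav2 stood at 24.3 and 29.0 TPM, Vav3 at 6.19 and 7.62 TPM and Rasgrp2 at 92.2 and 112 TPM in the KO- and WT-labelled libraries, with log2 fold changes of -0.24, -0.26 and -0.28. Themis2, the counterpart of Themis in B and myeloid cells, stood at 1.695 and 2.51 TPM in the KO- and WT-labelled libraries. Of 17 paralogs, 15 were measured and 0 passed a log2 fold change of 0.5, against 6.42% of all genes lower and 3.37% higher. Their median was -0.12.

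**Figure D3:**
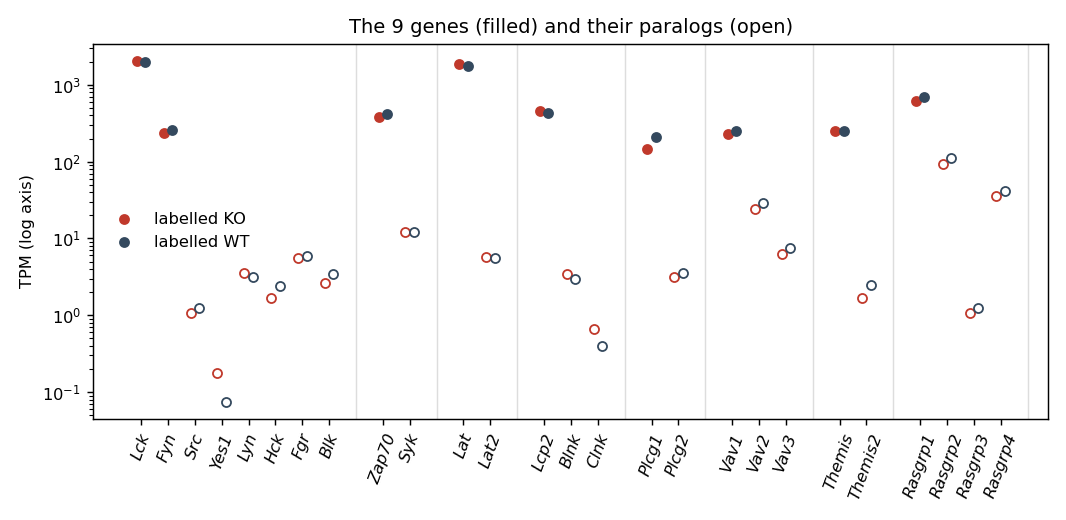
Level in TPM (log axis) of the 9 genes (filled points) and of their 17 paralogs (open points), grouped by family, with the KO-labelled library left of the WT-labelled library in each pair. In each family the filled points lie highest, and Rasgrp2, at 92.2 TPM (KO-labelled) and 112 TPM (WT-labelled), is the most abundant paralog.

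The depth of reads along each transcript differed between the libraries in a direction that all 9 genes shared. Exon depth is given in TPM-equivalents, that is, read depth divided by the depth that 1 TPM gave in the same library. For each gene the depth ratio, labelled KO over labelled WT, was taken over 3 equal stretches of the most abundant transcript, of which the 5' and the 3' stretch are compared here with each exon placed by its midpoint, a measure chosen after the exon depths were seen. The ratio was higher in the 3' stretch for 9 of 9 genes, by a log2 difference of 0.13 for Lat to 0.47 for Rasgrp1. This was a property of the libraries at large, since the median over 5859 genes was 0.24 and 86.8% of them lay above 0. The cause was not tested.

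Rasgrp1 showed the largest such difference among the 9. Its depth ratio was 0.731 (0.709 to 0.753) over the 5' stretch and 1.01 (0.992 to 1.03) over the 3' stretch, which is its terminal exon. Themis behaved alike, with ratios of 0.845 (0.814 to 0.878) and 1.12 (1.08 to 1.16) in the 5' and 3' stretches, and so did Fyn, with 0.829 (0.788 to 0.872) and 1.06 (1.01 to 1.11). Without its terminal exon Fyn had a log2 fold change of -0.24. For these 3 genes the gene level in TPM is thus a mean of a lower 5' part and a 3' end at or above the depth in the WT-labelled library. The same holds for Lck and Zap70, whose ratios are given below. Within counting error it also holds for Vav1, with a ratio of 0.973 (0.900 to 1.05) in the 3' stretch.

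Plcg1 was lower in the KO-labelled library in both parts. Its depth ratio was 0.613 (0.576 to 0.653) over the 5' stretch and 0.770 (0.731 to 0.812) over the 3' stretch. Over exons before the terminal one, 9.06% of 6648 genes had a lower ratio in the 5' stretch and 12.7% in the 3' stretch. Lck had ratios of 0.943 and 1.13 in the 5' and 3' stretches, Zap70 0.847 and 1.00, Vav1 0.841 and 0.973, Lcp2 1.01 and 1.14, and Lat 0.976 and 1.07. The interval of the 5' stretch of Lcp2, 0.978 to 1.04, and that of Lat, 0.935 to 1.02, include 1.

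**Figure D4:**
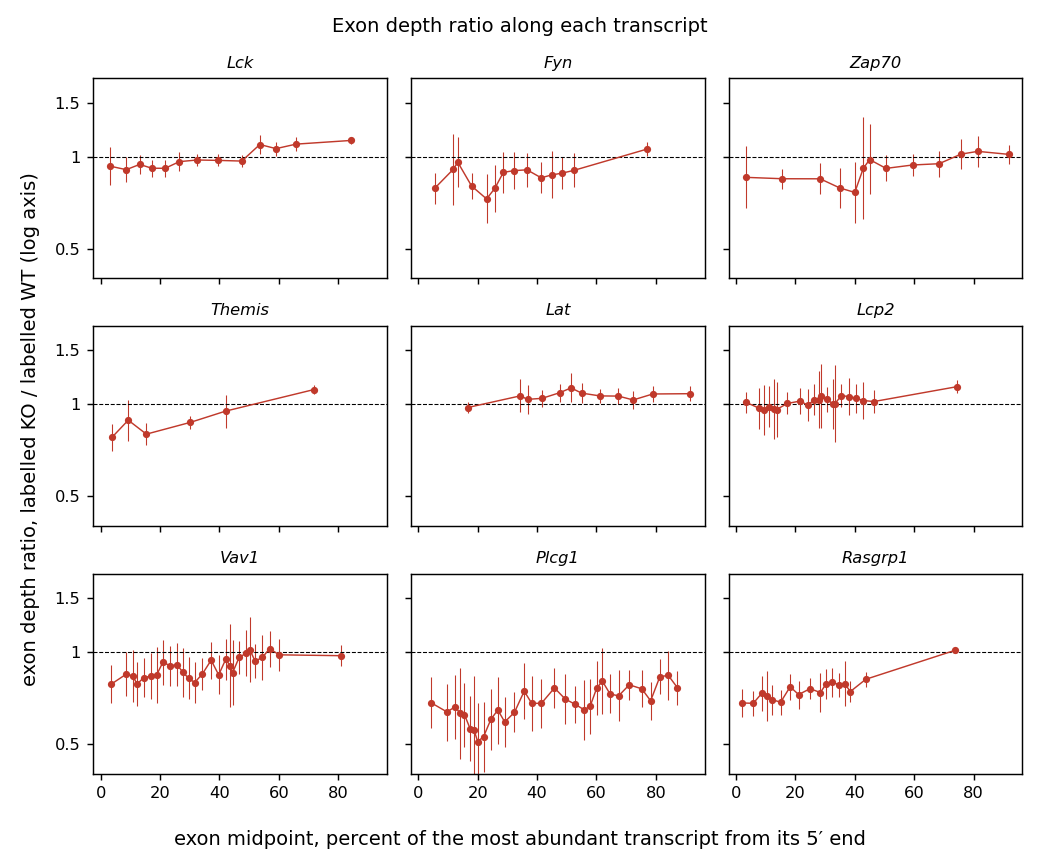
Depth ratio of each exon with at least 20 read pairs, labelled KO over labelled WT (log axis), against the position of its midpoint in the most abundant transcript, in percent from the 5' end, with 95% exact binomial intervals. The points lie higher at the 3' than at the 5' end in the 9 genes, those of Plcg1 all lie below 1, and those of Lat and Lcp2 stay near or above 1.

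With the terminal exon set against all other exonic bases of the gene, the log2 ratio was above 0 in each of the 8 genes in which it could be measured, from 0.049 for Lat to 0.43 for Rasgrp1. None of the 8 reached 0.5, against 7.46% of 8071 genes, and the medians were 0.19 for the 8 and 0.19 for all. Within the exons before the terminal one, the difference between the 3' and the 5' stretch was 0.33 for Plcg1 and 0.069 to 0.24 for the others, and none of the 9 reached 0.5, against 8.09% of all genes. Gene length moved with the fold change too. Classes of length chosen after the data were seen had median log2 fold changes of 0.052 below 2000 bases, the class of Lat, of -0.064 below 4000 bases, the class of Lck, Fyn, Zap70 and Lcp2, and of -0.21 for longer transcripts, the class of Plcg1, Vav1, Themis and Rasgrp1. Plcg1 lies below the median of its class, and the part of length in its value was not tested.

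The annotated 3' end of Plcg1 was hardly covered in either library. Exon 32 (chr2:160761739-160761923) had a depth of 229 and 300 TPM-equivalents in the KO- and WT-labelled libraries, while the last 2 annotated exons, 33 (chr2:160774528-160774587) and 34 (chr2:160775350-160775760), had 0.877 and 1.02, and 1.19 and 1.09. GENCODE M21 lists another last exon of 1193 bases (chr2:160762094-160763286) that the deposited annotation does not hold, so reads there did not enter the level of Plcg1. The annotated last exons overlap Zhx3 and Gm27206 on the opposite strand, and 5.81% of 50-base words of the transcript occur in those genes. Because the strand used in counting is not given, the few reads in those exons cannot be assigned. The main transcripts of Lcp2 and Themis also overlap genes on the opposite strand, by at most 194 and 153 bases, where the same limit applies. Both libraries were quantified with the same annotation.

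Transcript forms differed little between the libraries. Of the 5 genes with several annotated transcripts, none had a transcript whose share of the gene's TPM differed by 25 percentage points, against 6.63% of 3032 genes, nor by 10 points, against 27.7%. The largest difference among them was 4.10 points, and the median of the largest difference per gene was 5.11 points over all genes. Lat, Lcp2, Plcg1 and Rasgrp1 have 1 annotated transcript each in the deposited annotation, so no share could be compared.

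**Figure D5:**
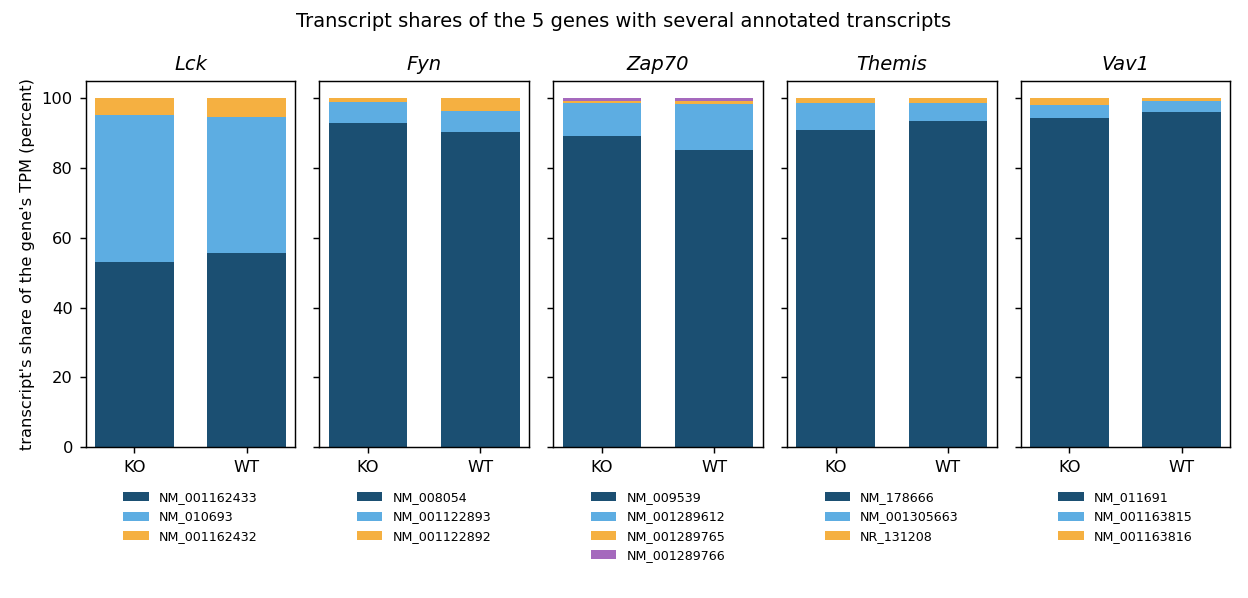
Share of the gene's TPM held by each annotated transcript, in percent (vertical axis), for the 5 genes with several transcripts, with the KO-labelled library left of the WT-labelled library. The main transcript holds over 85% in Fyn, Zap70, Themis and Vav1 in both libraries, while Lck is divided between its distal and its proximal start.

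Lck RNA was shared between its starts in both libraries. The transcript from the distal start (NM_001162433) was assigned 1082 and 1112 TPM, or 53.0% and 55.8% of the gene, in the KO- and WT-labelled libraries. The main transcript from the proximal start (NM_010693) was assigned 863 TPM (42.3%) in the KO-labelled library and 774 TPM (38.8%) in the WT-labelled library. The second proximal form (NM_001162432) held 4.67% and 5.38% in the KO- and WT-labelled libraries. By these estimates the main proximal transcript took a somewhat larger share in the KO-labelled library.

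The first exons of Lck themselves gave another picture. The distal first exon (chr4:129573515-129573641, minus strand, after the first window printed above) had 293 and 315 TPM-equivalents, and the unspliced proximal first exon (chr4:129558081-129558372), whose last 110 bases also lie in the second exon of the other forms, 605 and 689 in the KO- and WT-labelled libraries. The distal exon held 32.7% of the depth of both in the KO-labelled library and 31.4% in the WT-labelled library. The distal exon rests on 415 and 346 estimated read pairs, and the proximal one on 1968 and 1740, in the KO- and WT-labelled libraries. No interval is given for this share of depth, because the exons differ in length. The distal share was 1.296 points higher in the KO-labelled library, the opposite sign to the transcript estimate. The depth of the proximal exon is what was assigned to NM_010693, so the pair is not independent of the transcript estimate. It also leaves out the first exon of NM_001162432. Relative to the rest of Lck the distal exon alone had a log2 ratio of -0.14 (-0.35 to 0.071). Whether the use of the starts differed is not resolved by these values.

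In Fyn the T cell form dominated in both libraries. NM_008054, which carries the FynT exon printed above, held 92.9% of Fyn TPM in the KO-labelled library and 90.5% in the WT-labelled library, and NM_001122893, which carries the FynB exon, held 6.18% and 5.88%. The FynT exon had 295 and 325 TPM-equivalents and the FynB exon 51.1 and 74.3, each in the KO- and WT-labelled libraries. By depth the FynB exon held 14.8% (approximate interval 12.1 to 17.9) of the pair in the KO-labelled library and 18.6% (15.4 to 22.1) in the WT-labelled library, and these intervals overlap. These shares of depth are larger than the transcript shares of NM_001122893, and they differed between the libraries in the opposite direction. Relative to the other exonic bases of Fyn the FynB exon was lower by a log2 ratio of -0.42 (-0.84 to -0.0089), which is short of the size of 1 used for a call. Those other bases include the terminal exon, whose own depth ratio was 1.06, while Fyn without it had a log2 fold change of -0.24. The interval therefore does not show a drop particular to the FynB exon.

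Another Fyn form (NM_001122892), which has the FynT exon and lacks a noncoding exon of 70 bases, was assigned 2.29 TPM in the KO-labelled library and 9.43 TPM in the WT-labelled library. The exon it lacks (chr10:39455066-39455135) had 332 and 346 TPM-equivalents in the KO- and WT-labelled libraries, which relative to the rest of Fyn is a log2 ratio of 0.061 (-0.21 to 0.33). That interval is too wide to show a change in a form of such low share.

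Zap70 RNA came mostly from its full-length transcript. NM_009539 held 89.4% of Zap70 TPM in the KO-labelled library and 85.3% in the WT-labelled library. NM_001289612, which starts inside the gene and which GENCODE classes as a retained intron, was assigned 35.1 TPM (9.24%) in the KO-labelled library and 55.6 TPM (13.2%) in the WT-labelled library. Its first exon (chr1:36778984-36779312) had 36.6 TPM-equivalents in the KO-labelled library and 67.6 in the WT-labelled library. Relative to the rest of Zap70 this is a log2 ratio of -0.78 (-1.11 to -0.45). The exon contains all bases of an exon of the other 3 forms (chr1:36779117-36779312), and its depth is what was assigned to NM_001289612. Exon depth is thus no separate check of the transcript share here, and the interval leaves out error of that assignment. The main first exon (chr1:36761798-36761942) had 97.8 and 114 TPM-equivalents in the KO- and WT-labelled libraries, a log2 ratio to the rest of the gene of -0.10 (-0.44 to 0.23).

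Over the 9 genes, 1 of 162 exons with at least 20 read pairs differed from the rest of its gene by a log2 ratio of 1 or more, against 1.17% of 92648 exons of all genes. This was another first exon of Zap70, that of NM_001289765 (chr1:36766934-36767121), with 3.80 and 13.0 TPM-equivalents in the KO- and WT-labelled libraries and a log2 ratio of -1.60 (-3.04 to -0.42). It rests on 7.97 and 21.1 estimated read pairs in the KO- and WT-labelled libraries. Among the 157 exons with at least 100 read pairs none passed, against 0.633% of such exons.

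Themis was mostly in the form that codes for the full protein, NM_178666, at 90.9% of Themis TPM in the KO-labelled library and 93.6% in the WT-labelled library. NM_001305663, which carries the alternative exon with stop codons shown above (chr10:28733492-28733653), was assigned 19.6 TPM (7.93%) in the KO-labelled library and 12.6 TPM (4.99%) in the WT-labelled library. Yet that exon had 9.64 TPM-equivalents in the KO-labelled library and 12.7 in the WT-labelled library, from 17.4 and 17.9 read pairs, and its log2 ratio to the rest of Themis was -0.37 (-1.41 to 0.66). The depth that the authors' quantification assigned to NM_001305663 was 26.7 TPM-equivalents (KO-labelled) and 11.5 (WT-labelled) in the terminal exon, which it shares with NM_178666. The higher estimate therefore lay in shared bases at the 3' end and not in the exon that defines the form. The exon of 153 bases that marks NM_178666 had 339 and 357 TPM-equivalents in the KO- and WT-labelled libraries.

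Vav1 RNA was 94.4% NM_011691 in the KO-labelled library and 96.1% in the WT-labelled library. NM_001163816, which lacks a coding exon of 117 bases, was assigned 3.97 TPM (1.74%) in the KO-labelled library and 2.19 TPM (0.867%) in the WT-labelled library. The exon it lacks (chr17:57311784-57311900) had 413 and 443 TPM-equivalents in the KO- and WT-labelled libraries, a log2 ratio to the rest of Vav1 of 0.051 (-0.13 to 0.24), an interval too wide to show a change of the size of these shares. NM_001163815 was assigned 8.88 TPM (KO-labelled) and 7.70 TPM (WT-labelled).

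The genes around these 9 in the pathway, from lists of 81 further genes of which 79 were measured, also kept within a log2 fold change of 1, and 0 of 79 passed that size. At 0.5, none was higher and 3 were lower in the KO-labelled library, which is 3.80% lower, against 6.42% lower and 3.37% higher among all genes. Of the 79, 57 (72.2%) lay below 0, against 61.5% of all genes. Their median was -0.11, against -0.070 for all genes.

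Of 9 receptor and coreceptor genes 0 passed 0.5, and their median was 0.016. Highest were Cd8b1, with a log2 fold change of 0.29, and the adhesion receptor Cd2, at 1598 and 1373 TPM in the KO- and WT-labelled libraries (0.22). Lowest were Cd3e, the epsilon chain that Lck phosphorylates, at 862 and 944 TPM in the KO- and WT-labelled libraries, and Cd4, both at -0.13. Of 21 measured partners of the adaptors 0 passed 0.5, with a median of -0.12. Highest were the adaptor Skap1, at 447 and 380 TPM (0.23), and the Tec kinase Tec, at 26.3 and 25.6 TPM (0.037), in the KO- and WT-labelled libraries. Lowest were Nck1, an adaptor that binds Lcp2, at 46.3 and 60.4 TPM (-0.38), and Sos1, the second exchange factor for Ras besides Rasgrp1, at 13.0 and 17.1 TPM (-0.37), in the KO- and WT-labelled libraries.

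Of 30 genes of the calcium, Rac and Ras branches 2 (6.67%) were lower by 0.5 or more, near the 6.42% of all genes, and the median was -0.16. These were Itpr3, a receptor for the inositol trisphosphate that Plcg1 makes, at 32.8 TPM in the KO-labelled library and 47.2 TPM in the WT-labelled library (-0.51), and Nf1, a GTPase-activating protein that switches Ras off, at 6.16 and 9.37 TPM (-0.53). Highest were the kinase Pak1, a target of Rac, at 28.9 and 22.6 TPM (0.34), and the calcium channel Orai1, at 64.7 and 55.0 TPM (0.23), in the KO- and WT-labelled libraries.

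Of 19 regulators of these kinases 1 (5.26%) was lower by 0.5 or more, near the 6.42% of all genes, and the median was -0.12. This was Cbl, a ubiquitin ligase that marks active receptor complexes and kinases for degradation, at 90.7 TPM (88.2 to 93.2) in the KO-labelled library and 165 TPM (162 to 169) in the WT-labelled library, a log2 fold change of -0.86. Its relative Cblb stood at 19.5 and 25.8 TPM in the KO- and WT-labelled libraries (-0.39). Highest were Ptprc, the CD45 phosphatase that keeps Lck ready by removing its inhibitory phosphate, at 1234 TPM (1225 to 1243) in the KO-labelled library and 939 TPM (930.0 to 948) in the WT-labelled library (0.39), and the phosphatase Ptpn2, at 80.1 and 68.7 TPM (0.22). Cbl thus had a larger log2 fold change in size than any of the 9 genes.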

How the data were processed

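The samples are CD69-sorted DP thymocytes, with 1 library labelled KO and 1 labelled WT, grouped from the labels. Trizol RNA and a TruSeq kit were used, per the labels' protocols. Alignment was with HISAT2 to mm10 (GRCm38), per the submitters' processing notes, and its version is not given in the sources. Per the file headers, the authors quantified RefSeq transcripts with StringTie 1.3.3b without assembly of new ones. Deposited values are TPM, FPKM and coverage of genes and transcripts, and coverage of exons. Coverage as deposited is read depth per base, with no scaling to library size. The strand setting used in counting is not given in the sources.

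TPM of rows with the same gene ID were summed. Of 24532 IDs, 24462 matched a symbol in the RefSeq table of GRCm38.p6. Read pairs were estimated as covered bases divided by 202, which is 2 mates of 101 bases. Near multiples of 202 (within 2 bases) lay 26.1% and 25.5% of low transcripts labelled KO and WT, against 2.48% by chance. Fold changes used a pseudocount of 1 for 12029 genes with at least 1 TPM in a library and understate low genes. Calls are rules of size (1, with 0.5 as a smaller one), not tests. Shares were compared for genes that reached 10 TPM in both libraries, and exons with at least 20 read pairs over both. Intervals are 95% exact Poisson (levels) and Clopper-Pearson binomial (ratios, shares), and PCR copies are not independent molecules, so they cover counting error only. That of the FynB share is approximate, because a share of depth was applied to the read pairs of exons that differ in length. Named genes were the 9 members, Nsrp1, 4 sorting markers, the most abundant paralog of each member and, of the paralogs and of each pathway list, genes past 1 and the 2 highest and 2 lowest with at least 5 TPM. Other genes were named as cell type or sex markers after their values were seen. The members and lists were chosen with earlier results of these data known. Alternatives were another pseudocount, other filters, FPKM, a rescaling by the median ratio, exons without the terminal one, shares of covered bases and other thresholds. Exon sequences come from GENCODE M21 transcripts and promoters from the RefSeq table. Simulated read pairs with counting noise only and planted changes larger than the size of a call were used to test the fold rule. They do not test smaller changes or other differences between libraries. Tools were scipy 1.17.1, numpy 2.4.6, pandas 2.3.3, biopython 1.88 and matplotlib 3.10.9 in Python 3.11.15.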

Additional observations from a re-analysis of the deposited data

How the results depend on the processing

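No member or pathway gene passed a log2 fold change of 1 under TPM, FPKM, the other pseudocount, the rescaling, the other filters or without the terminal exon. At 0.5, the count of members was 0, without Plcg1, with FPKM and with the rescaling by the median ratio, and that of pathway genes was 1 with either, and 14 without the terminal exon. The share of all genes past 0.5 was not taken under these settings, so these counts have no background and are not a result about the genes. The members' median was -0.022 with FPKM, -0.051 with the rescaling and -0.16 without the terminal exon, and the pathway genes' median was -0.015, -0.043 and -0.21. The median of all genes moved too, to 0.026 with FPKM, -0.0052 with the rescaling and -0.14 without the terminal exon. The members' median minus that of all genes was -0.12 with no filter on low values. With at least 100 read pairs, 0 exons of the members passed 1. Main results were compared with their values under the alternative settings, without scoring changes of direction. Of these comparisons 35 stayed close to the reported value and 13 moved, and the same result can enter several times. The cause was not tested. No paired analysis was possible because each label has 1 library. With no replicates the spread between mice is unknown, and exons with few read pairs, such as the alternative first exons of Zap70 and the alternative exon of Themis, have wide intervals.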
